A study of Mus musculus with 8 samples.

Results

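The TRAV12 family of T cell receptor α-chain V segments was examined in the host's own CD8+ T cells (en-T cells) from 8 mice with melanoma. Its members were all clonotypes of the 8 α-chain libraries whose V segment was named TRAV12, with or without the letter D or N, followed by a number. They came to 7846 of 53249 α-chain clonotypes and 10960 of 80000 reads, under 9 of the 116 V segment names in the libraries. A clonotype is here a distinct CDR3 in nucleotides, where the CDR3 is the loop encoded across the V to J junction, and the deposited value is its number of reads. Each library held exactly 10000 reads after down-sampling and 5043 to 7695 clonotypes.

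All 8 mice were female C57BL/6 animals of 6 to 8 weeks. They were given 200000 B16F10 melanoma cells, cyclophosphamide (CTX, a lymphodepleting drug) at 300 mg/kg on day 3, and 2000000 Pmel-1 cells on day 5. Pmel-1 cells are Thy1.1 CD8+ T cells whose transgenic receptor recognises gp100, an antigen of melanoma. Recombinant human IL-2, 10000 IU, was injected daily for 3 days from day 5. The CTXpre group (labelled CTX, n = 3 mice) received nothing further. The CTXpre/CD4post group (labelled CTX_CD4, n = 5 mice) also received 200 μg of the anti-CD4 antibody GK1.5 each week for 3 weeks from day 10. On day 25, CD8+ cells without Thy1.1 were sorted from lymph nodes and spleen of each mouse, so transferred Pmel-1 cells were gated out by this marker. Reads of TRAV11 joined to TRAJ18, the receptor of invariant NKT cells, numbered 4 to 10 per CTXpre mouse and 2 to 25 per CTXpre/CD4post mouse. TRAV1 joined to TRAJ33, the receptor of MAIT cells, had 1 to 2 and 0 to 6 reads. TRAV7 and TRBV14, listed for the Pmel-1 receptor from general knowledge, had 1759 to 1877 against 1815 to 2077 and 414 to 494 against 399 to 643 reads. Their part in the results was not tested.

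The α-chain of a T cell receptor is assembled in the thymus by joining a V segment to a J segment, with loss of bases at both ends and addition of bases between them. In the mouse, part of the TRAV cluster has been duplicated, which gave most V families extra copies that carry the letters D and N. Because the J segments lie in a row downstream of the V segments, a thymocyte can replace an early join by joining a V segment farther upstream to a J segment farther downstream, and TRAJ numbers fall in that direction.

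In the RefSeq annotation of GRCm38, the build named mm10 in the submitters' processing notes, all TRAV12 segments lie on the plus strand of chromosome 14. The D copies come before the N copies and the undoubled copies come last, nearest to the J segments. TRAV12D-1 lies at chr14:52844560-52845041, TRAV12D-2 at chr14:52915915-52916426 and TRAV12D-3 at chr14:52929789-52930282. TRAV12N-1 lies at chr14:53155607-53156088, TRAV12N-2 at chr14:53226884-53227400 and TRAV12N-3 at chr14:53240751-53241244. The undoubled copies are TRAV12-1 at chr14:53538266-53538738, TRAV12-2 at chr14:53616397-53616914 and TRAV12-3 at chr14:53621752-53622245. The J segments found run from TRAJ58, at chr14:54157280-54157342, to TRAJ2, at chr14:54217836-54217901. Each of the 9 copies has 2 exons, and the second one encodes the V domain up to the CDR3. The family also has TRAV12-4, annotated as a pseudogene at chr14:53778603-53778845, and no clonotype carried that name.

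The germline bases that start the CDR3 are 14 in every copy and take only 2 forms. The capitals mark the base that differs between them.

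TRAV12-1, TRAV12-3 and their D and N copies: tgtgctCtgagtga
TRAV12-2 and its D and N copies: tgtgctTtgagtga

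The V exons of the D and the N copy of each number were identical, with 0 differences over 295, 292 and 296 bases for numbers 1, 2 and 3. The undoubled copy differed from its D and N copies at 9 to 15 of 280 bases compared. Numbers 1 and 3 differed at 19 to 22 bases, and number 2 differed from either at 80 to 88. The germline V exons thus tell the numbers apart, and the undoubled from the duplicated copies. The choice between D and N has no base in that exon to rest on. Over both exons as annotated, the D and N copies of number 1 were identical and those of numbers 2 and 3 were not. How much of the exons the reads covered was not examined.

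The joins below show how these ends were used, and were chosen because each was found in all 8 mice. Capitals mark the bases that match neither the germline V end nor the germline J segment, and a line without capitals is a join made of germline bases alone. Each join is called by its V and J segments.

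TRAV12N-3 and TRAJ33: tgtgctctgagcaactatcagttgatctgg
TRAV12N-3 and TRAJ12: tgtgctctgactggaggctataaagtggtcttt
TRAV12-2 and TRAJ34: tgtgcttccaataccaacaaagtcgtcttt
TRAV12N-3 and TRAJ23, form 1: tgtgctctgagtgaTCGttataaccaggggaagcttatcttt
TRAV12N-3 and TRAJ23, form 2: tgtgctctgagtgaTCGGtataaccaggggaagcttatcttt
TRAV12N-3 and TRAJ23, form 3: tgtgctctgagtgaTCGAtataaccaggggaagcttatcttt
TRAV12N-3 and TRAJ7: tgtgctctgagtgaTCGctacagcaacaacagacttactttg
TRAV12D-3 or TRAV12N-3 and TRAJ4: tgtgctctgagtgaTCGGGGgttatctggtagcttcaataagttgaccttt

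The same can be seen from the germline side. In the next lines the capitals mark the germline bases of each segment that the join of TRAV12N-3 and TRAJ33 kept.

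TRAV12N-3 end: TGTGCTCTGAGtga
TRAJ33 start: tggatAGCAACTATCAGTTGATCTGG

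The V segment kept 11 bases and the J segment 21, of a CDR3 of 30 bases, so that the 2 bases AG at the junction are found in both germline ends. TRAJ33 lies at chr14:54185358-54185414.

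The family was chosen by its reads, because in an earlier look at these data those of TRAV12N-1 and TRAV12N-3 did not overlap between the groups. Use of the family and its copies between groups is therefore given as a description, with no test of a copy. Family reads were 1420, 1518 and 1738 in the CTXpre mice and 1398, 1345, 1314, 1192 and 1035 in the CTXpre/CD4post mice, in the order of their replicate numbers. Every CTXpre mouse was above every CTXpre/CD4post mouse, by 22 reads at the closest, and the Wilson 95% intervals of that closest pair, 13.5% to 14.9% and 13.3% to 14.7%, overlapped. The mean share was 15.6% ± 1.63 (SD, n = 3) against 12.6% ± 1.45 (SD, n = 5). Counted in clonotypes, where each counts once whatever its reads, the share was 14.8%, 15.6% and 17.3% against 15.2%, 13.5%, 14.3%, 13.4% and 13.2%. In this measure CTXpre/CD4post mouse 1 lay above CTXpre mouse 1, so the groups overlapped. Intervals and limits cover counting error only, since PCR reads without molecular identifiers are not independent molecules.

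TRAV12N-3 was the most used copy of the family, with 4877 reads, 44.5% of the family's, and 3204 clonotypes. Its reads were 666, 754 and 817 in the CTXpre mice and 579, 502, 655, 504 and 400 in the CTXpre/CD4post mice, a mean of 746 ± 75.8 (SD, n = 3) against 528 ± 95.3 (SD, n = 5). The groups lay 11 reads apart at the closest. Its clonotypes numbered 466, 544 and 500 against 360, 346, 438, 314 and 236, and were apart as well. TRAV12N-1, a little-used copy of 245 reads, had 33, 45 and 41 reads against 26, 17, 28, 30 and 25. Its groups lay 3 reads apart, and its clonotypes overlapped between groups.

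These were the copies by which the family was chosen, and they were the only copies of the 9 whose reads did not overlap. Over all 103 V segments with 10 or more reads in 3 or more mice, reads were lower in every CTXpre/CD4post mouse than in every CTXpre mouse for 4.85% and higher for 0.971%. For clonotypes, with 101 V segments, the shares were 6.93% and 0%. As a background over all V segments, edgeR's quasi-likelihood test called 0% in reads and in clonotypes at an adjusted p of 0.05 (6 of 103 and 6 of 101 by unadjusted p under 0.05), and DESeq2 called 0 in either. The test values of single TRAV12 copies are not given, since the choice of the family fixed their direction. The median log2 fold change (CTXpre/CD4post over CTXpre) of the 8 copies that passed the filter was -0.17 in reads and -0.24 in clonotypes, beside 0.04 and 0.02 over all V segments, and this too follows the choice.

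The other copies overlapped between groups. TRAV12-2, the second most used copy, had 212 to 288 reads per CTXpre mouse and 188 to 277 per CTXpre/CD4post mouse. TRAV12N-2 had 1359 reads over the 8 mice, TRAV12-1 had 950 and TRAV12-3 had 742. The copies named D were rare, with 51 reads for TRAV12D-1, 429 for TRAV12D-2 and 409 for TRAV12D-3. Copies were also joined by the number after the dash, which the germline V exons tell apart. Number 3 then had 823 to 965 reads per mouse against 482 to 793. Number 2 had 411 to 556 against 414 to 499, and number 1 had 139 to 217 against 107 to 203. As a share of the family's reads, number 3 held 58.2% ± 2.78 (SD, n = 3) against 52.5% ± 4.99 (SD, n = 5), and the groups overlapped.

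**Figure D1:**
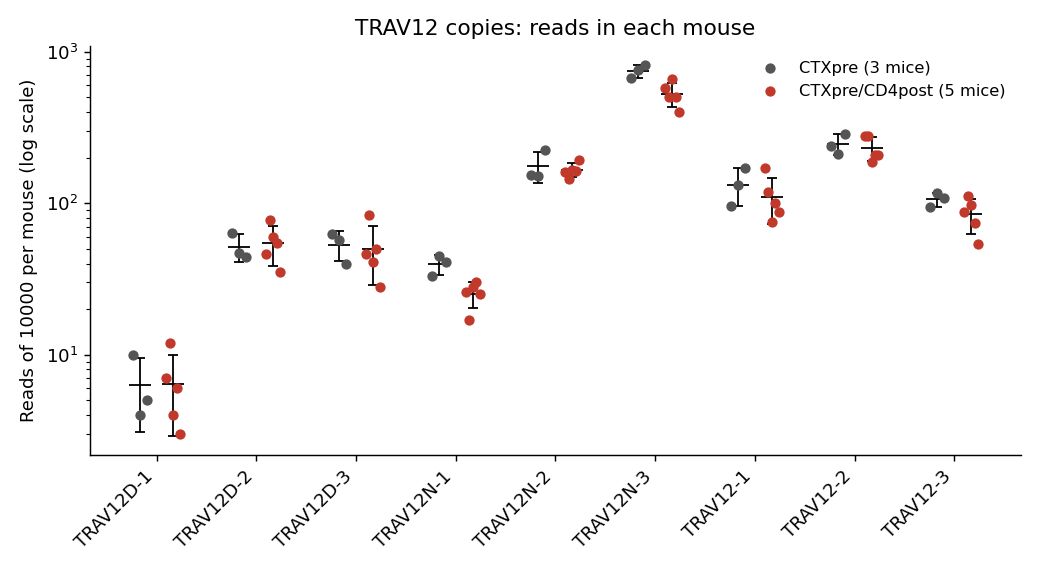
Reads of each TRAV12 copy out of 10000 per mouse, on a log scale, with copies in their order on the chromosome. Points are mice and bars are mean ± SD for the CTXpre (n = 3) and CTXpre/CD4post (n = 5) groups. TRAV12N-3 stands highest, at 400 to 817 reads per mouse, and TRAV12D-1 lowest.

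Reads per clonotype differed among the copies. They were 1.52 for TRAV12N-3, 1.48 for TRAV12N-2, 1.36 for TRAV12-1, 1.33 for TRAV12N-1, 1.32 for TRAV12-2 and 1.22 for TRAV12-3, and 1.09 to 1.16 for the D copies. The D names were carried mainly by clonotypes of 1 read. Among clonotypes named D or N, 723 of 3834 seen in 1 read were named D (18.9%), as were 78 of 1172 seen in 2 to 4 reads (6.66%) and 0 of 101 seen in 5 or more reads, which allows a share of up to 2.97%. The same order held within each number, with 12.5% and 4.48% for number 3 and 34.0% and 14% for number 2, at 1 read and at 2 to 4 reads. CTXpre/CD4post mouse 2 had the highest share of D names among D and N clonotypes at each number (44%, 43.8% and 19.2%) and also the highest share of family clonotypes seen in 1 read, 85.0% against 69.5% to 81.9% in the other mice.

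Names also moved between mice for a fixed CDR3. Of 797 nucleotide CDR3 found in 2 or more mice under TRAV12 names, 355 (44.5%) carried more than 1 of the 9 names and 158 (19.8%) more than 1 number. The pair seen most was TRAV12-1 with TRAV12N-3 (63 CDR3), whose germline CDR3 ends are the same, followed by TRAV12-2 with TRAV12N-2 (52). Of the 111 shared CDR3 that bore a D name in any mouse, 108 (97.3%) bore another name elsewhere. A further 288 of the 6554 distinct CDR3 of the family were named outside it in some mouse. For a shared CDR3, different names can stand for different rearrangements, and these cannot be told apart from the naming by the aligner.

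The copies also differed in their J partners. The undoubled copies were joined to J segments of high number, near the V segments, and the N copies to J segments of low number, far from them. The mean TRAJ number per clonotype of the undoubled copies was 35.5, 34.7 and 34.8 in the CTXpre mice and 35.8, 35.2, 33.9, 34.7 and 34.1 in the CTXpre/CD4post mice. For the N copies it was 24.2, 22.2 and 23.1 against 22.7, 23.7, 21.8, 22.9 and 24.0. The 2 sets of copies were far apart in each of the 8 mice, and the treatment groups overlapped within either set.

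Within mice, the undoubled copies exceeded the N copies by 11.8 ± 0.889 (SD, n = 8 mice) in mean TRAJ number, higher in 8 of 8 mice (exact two-sided sign-flip permutation test, p = 0.00781, the smallest that 8 mice allow, Benjamini-Hochberg adjusted 0.00911 over 14 comparisons). This comparison and the 13 others adjusted with it were chosen after the values had been seen. With clonotypes of 1 read left out the difference was 11.6. Over CDR3 that bore only 1 TRAV12 name and none outside the family it was 12.6. Most of these CDR3 were seen in 1 mouse, where a name cannot move between mice. The difference held at each number. TRAV12-1 exceeded TRAV12N-1 by 7.35 ± 1.98, TRAV12-2 exceeded TRAV12N-2 by 11.97 ± 1.46, and TRAV12-3 exceeded TRAV12N-3 by 12.6 ± 0.867 (SD, n = 8, each higher in 8 of 8 mice with the same exact p). Clonotypes named D lay between the 2 sets, at 26.9 ± 1.70. They were 3.83 ± 1.64 above the N copies and 7.92 ± 1.57 below the undoubled copies, in 8 of 8 mice each (same exact p).

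The share of clonotypes with J segments from TRAJ41 upward shows the same order. It was 32.9% ± 6.29 for TRAV12-1, 32.8% ± 1.91 for TRAV12-2 and 35.1% ± 5.44 for TRAV12-3 (SD, n = 8 mice). Among the N copies it was 18.5% ± 7.20 for TRAV12N-1, 9.59% ± 2.82 for TRAV12N-2 and 7.67% ± 1.88 for TRAV12N-3. The D names ran from 15.2% for TRAV12D-3 to 27.8% ± 19.2 for TRAV12D-1, which had only 44 clonotypes in all.

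**Figure D2:**
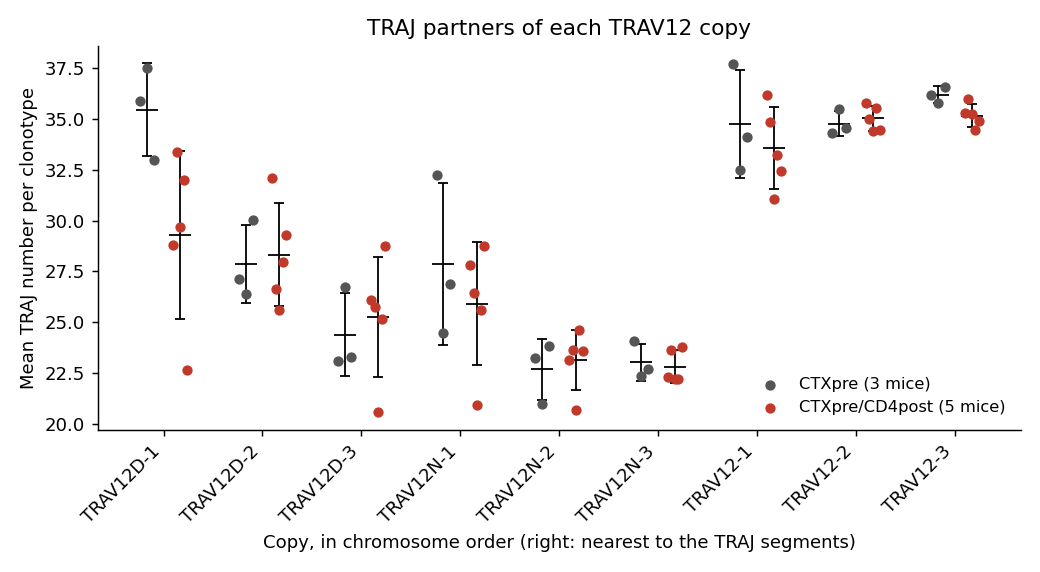
Mean TRAJ number of the clonotypes of each TRAV12 copy, with copies in chromosome order from the farthest (left) to the nearest (right) to the J segments. Points are mice and bars are mean ± SD. TRAV12-3 stands at 34.5 to 36.6 in the 8 mice and TRAV12N-3 at 22.2 to 24.1, and TRAV12D-1 scatters widely.

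As a whole, TRAV12 clonotypes used J segments farther downstream than the other α-chain clonotypes of the same mouse. Their mean TRAJ number was 27.6 against 31.1, a difference of -3.53 ± 0.468 (SD, n = 8), lower in 8 of 8 mice (exact two-sided sign-flip test, p = 0.00781, adjusted 0.0195 over the 5 within-mouse comparisons). The difference was -1.20 against the TRAV7, TRAV9 and TRAV14 families, which are duplicated as well, with the same exact p. Among the 17 V families with 400 or more clonotypes, TRAV12 ranked second from the lowest. TRAV8, at 26.0 ± 0.809, was below it in 8 of 8 mice, whereas TRAV7 (27.7 ± 0.568) and TRAV9 (28.1 ± 1.40) did not differ from it beyond the spread (exact sign-flip p = 0.766 and p = 0.25, n = 8, differences of TRAV12 from TRAV7 between -1.56 and 0.383 in single mice). The highest means of the 17 were those of TRAV21, at 48.0 ± 1.30, and TRAV19, at 47.99 ± 0.911.

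Of 43 TRAJ segments compared with the other clonotypes of the same mouse, 17 passed an adjusted p of 0.05 (39.5%), 8 of them used more by TRAV12 clonotypes (18.6%) and 9 used less (20.9%). TRAJ31 was the most frequent partner, in 6.67%, 6.67% and 5.69% of family clonotypes in the CTXpre mice and 6.18%, 6.57%, 6.00%, 5.69% and 7.04% in the CTXpre/CD4post mice. Its mean share of 6.31% exceeded that among other clonotypes, 4.13%, by 2.18 ± 0.713 percentage points (SD, n = 8), higher in 8 of 8 mice (exact p = 0.00781, adjusted 0.0224). TRAJ15 was used by 5.09% against 2.85%, an excess of 2.24 ± 0.640 points with the same exact and adjusted p. TRAJ49 showed the largest deficit of the 43, at 1.75% against 4.56%, a difference of -2.81 ± 0.533 points, lower in 8 of 8 mice, again with the same exact p.

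The others used more were TRAJ7, TRAJ32, TRAJ23, TRAJ6, TRAJ5 and TRAJ34, by 0.429 to 1.10 points. Those used less besides TRAJ49 were TRAJ30, TRAJ45, TRAJ48, TRAJ56, TRAJ47, TRAJ50, TRAJ52 and TRAJ53. Of the 9, 8 are numbered TRAJ45 or above, and all 8 used more are numbered TRAJ34 or below. TRAJ22 (6.22% of family clonotypes) and TRAJ26 (4.99%) were among the 5 most frequent partners and did not pass (adjusted p = 0.0611 and 0.580, exact sign-flip test, n = 8). Shares of a library sum to 100%, so the segments were not free to vary singly. Against TRAV7, TRAV9 and TRAV14 alone, 9 TRAJ segments passed.

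**Figure D3:**
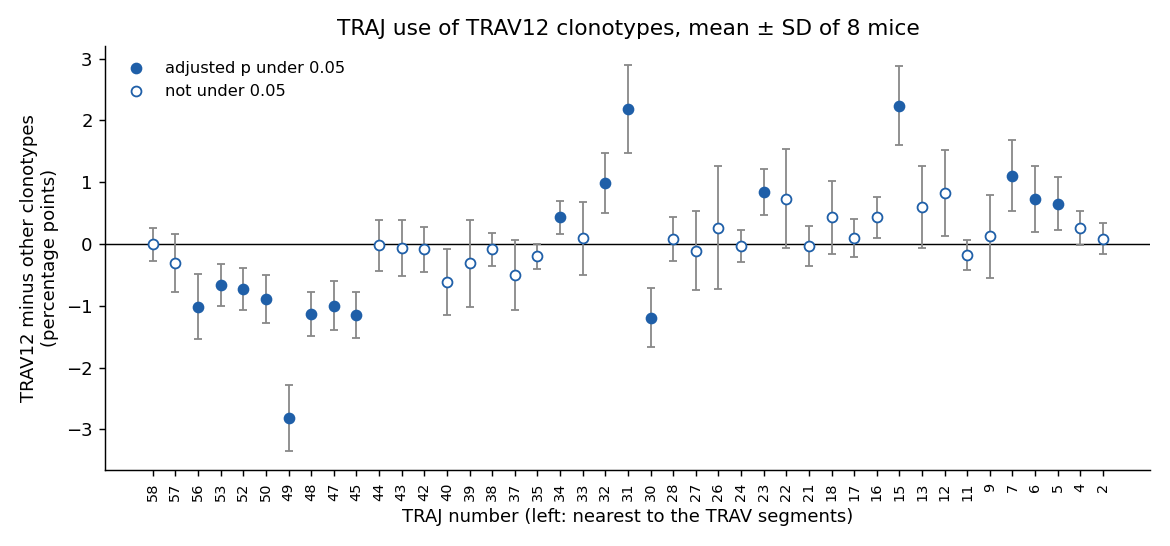
Share of TRAV12 clonotypes with each TRAJ segment minus the share among the other α-chain clonotypes of the same mouse, in percentage points, as mean ± SD of 8 mice. Filled points passed an adjusted p of 0.05 in the exact sign-flip test. TRAJ49 lies lowest at -2.81, and TRAJ15 (2.24) and TRAJ31 (2.18) lie highest.

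J use was also compared between the treatment groups. The mean TRAJ number of family clonotypes was 27.4 ± 0.776 (SD, n = 3) in the CTXpre group and 27.7 ± 1.21 (SD, n = 5) in the CTXpre/CD4post group (two-sided exact Mann–Whitney test, p = 0.571). Of 260 pairs of a V family and a TRAJ segment tested in edgeR on numbers of clonotypes, 0% passed an adjusted p of 0.05, and 0 of the 38 TRAV12 pairs did, nor did any in DESeq2. By unadjusted p under 0.05, 17 of the 260 passed, with 4 TRAV12 pairs among them, and all 4 had fewer clonotypes in the CTXpre/CD4post group. The 38 TRAV12 pairs as a whole had a median log2 fold change of -0.20, beside -0.0028 over all pairs, so the direction of the 4 is that of the family, by which it was chosen, and not a measure of J use alone. These were the pairs with TRAJ5 (a mean of 19 clonotypes against 8.20), TRAJ4 (24 against 13), TRAJ56 (18.3 against 9) and TRAJ7 (40.7 against 25.6). They fall outside the rule by which segments were to be named and are given because they are few.

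CDR3 loops of the family were short. TRAV12 clonotypes averaged 13.41 amino acids and the other α-chain clonotypes 13.70, a difference of -0.288 ± 0.0558 (SD, n = 8), lower in 8 of 8 mice (exact two-sided sign-flip test, p = 0.00781, adjusted 0.0195). The difference was -0.0475 against TRAV7, TRAV9 and TRAV14, lower on average still (exact sign-flip p = 0.0469, n = 8 mice). The shift lay at the short end. A CDR3 of 10 residues was found in 4.41% ± 0.442 of family clonotypes and in 0.987% ± 0.165 of the others (SD, n = 8), and one of 11 residues in 7.47% ± 1.01 against 3.84% ± 0.215. At 14 residues, the most frequent length in both, the shares were 25.9% against 30.8%, and at 15 residues they were 16.75% and 16.71%.

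TRAV12N-3 carried the shortest loops, 13.16 ± 0.0880 residues against 13.59 ± 0.0884 for the other copies together (lower in 8 of 8 mice, exact sign-flip p = 0.00781, adjusted 0.00911). Loops of 11 residues or fewer made up 18.4% ± 2.01 of its clonotypes and 8.62% ± 1.41 of those of the other copies (higher in 8 of 8 mice, same exact p), beside 5.25% ± 0.282 of clonotypes outside the family. Of the 978 such short clonotypes of the family, 141 used TRAJ31, 89 TRAJ9, 86 TRAJ33, 80 TRAJ21 and 74 TRAJ34. Between the treatment groups, the mean length was 13.45, 13.41 and 13.49 in the CTXpre mice and 13.39, 13.39, 13.41, 13.46 and 13.32 in the CTXpre/CD4post mice. The groups overlapped (two-sided exact Mann–Whitney test, p = 0.143, adjusted 0.625 over the 5 comparisons between groups).

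**Figure D4:**
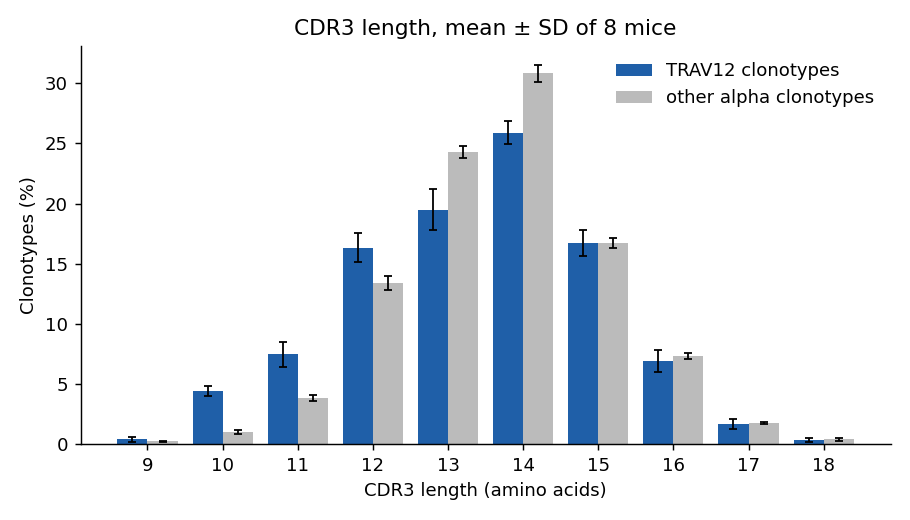
Share of clonotypes with a CDR3 of 9 to 18 amino acids, for TRAV12 and for the other α-chain clonotypes, as mean ± SD of 8 mice. At 10 and 11 residues the TRAV12 bars stand at 4.41% and 7.47%, above 0.987% and 3.84% for the others.

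Many loops began as the germline end encodes. These starts were counted over family loops that ran from cysteine to phenylalanine or tryptophan. In the mean over 8 mice, 56.8% ± 1.21 of them began with cysteine, alanine, leucine and serine, which the whole codons of that end encode. Aspartic acid followed these in 27.7% ± 1.79. The 4.47% of family loops that did not run from cysteine to phenylalanine or tryptophan were left out of these shares. Germline TRAJ7, used by 3.12% of family clonotypes in the mean over mice, encodes leucine at the last place, as in its printed join. All 14 germline bases were kept in 34.0% ± 1.34 of clonotypes. Of these 2675 clonotypes, the next 2 bases were TC in 49.0% ± 2.07, followed in frequency, over the clonotypes of all mice, by TA (10.3%) and TG (8.52%). TC is the reverse complement of GA, the last 2 bases of the segment, and palindromic bases of this kind are a known feature of V-J joints. The printed joins with TRAJ23, TRAJ7 and TRAJ4 all carry TC at this place.

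By the positions in the deposited files, 29.5% of family clonotypes had no base between the V and the J part, against 30.9% of the others, lower in 7 of 8 mice (difference -1.45 ± 0.971 points, exact sign-flip p = 0.0156, adjusted 0.0195). This result depended on how the ends were counted. In 33.8% of family clonotypes the file's V end lay beyond the bases that matched the germline segment without a mismatch. With an exact match to the RefSeq germline ends instead, 11.9% ± 1.03 of family clonotypes and 11.95% ± 0.315 of the others had no unmatched base (difference -0.0508 points, exact sign-flip p = 0.906, n = 8). Between the treatment groups, the share by the files' positions was 29.0%, 28.3% and 31.2% against 29.7%, 28.3%, 31.0%, 29.6% and 28.4%, which overlapped (exact Mann–Whitney p = 1).

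Of the 6554 distinct nucleotide CDR3 of the family, 5757 (87.8%) were found under a TRAV12 name in 1 mouse and 8 in all 8 mice. The shares of clonotypes found in another mouse, here and below, count the CDR3 there under any V name. A clonotype of the family was found in another mouse in 29.3% ± 1.15 of cases in the CTXpre group (SD, n = 3) and 29.5% ± 1.54 in the CTXpre/CD4post group (SD, n = 5) (two-sided exact Mann–Whitney test, p = 1). Pairs of mice shared family CDR3 at 73.0 to 86.0 per 1000000 possible pairs of clonotypes within the CTXpre group, 76.8 to 92.5 within the CTXpre/CD4post group and 66.4 to 97.5 between the groups, so pairs from different groups covered the range of both. Family clonotypes were found elsewhere more often than the other clonotypes of the mouse, 29.4% against 27.2%, in 7 of 8 mice (2.17 ± 1.41 points, exact sign-flip p = 0.0156, adjusted 0.0195). Mice that share a clonotype both count it, so the 8 differences are not independent. Against TRAV7, TRAV9 and TRAV14 the direction was turned, at -1.72 points (exact sign-flip p = 0.0156, n = 8). Within the family, 39.8% ± 2.50 of TRAV12N-3 clonotypes were found in another mouse, against 22.4% ± 2.43 for the other copies (17.5 ± 3.65 points, higher in 8 of 8 mice, exact sign-flip p = 0.00781, adjusted 0.00911). TRAV12N-3 is also the most frequent copy.

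The fewer bases of a join that matched neither germline end, the more often it was found in another mouse. With 0 such bases, 70.4%, 71.6% and 76.1% of family clonotypes of the CTXpre mice and 72.0%, 77.6%, 65.6%, 73.2% and 74.7% of those of the CTXpre/CD4post mice were found elsewhere. The mean over 8 mice was 72.7% ± 3.71 for 0 bases, 38.8% ± 2.82 for 1 or 2, 21.6% ± 2.32 for 3 or 4 and 9.50% ± 1.60 for 5 or more (SD). The ranges of the 4 classes did not overlap over the mice. Joins found in all 8 mice were an exception at the far end, since 5 of these 8 had 3 to 6 unmatched bases, which begin with TC in each.

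**Figure D5:**
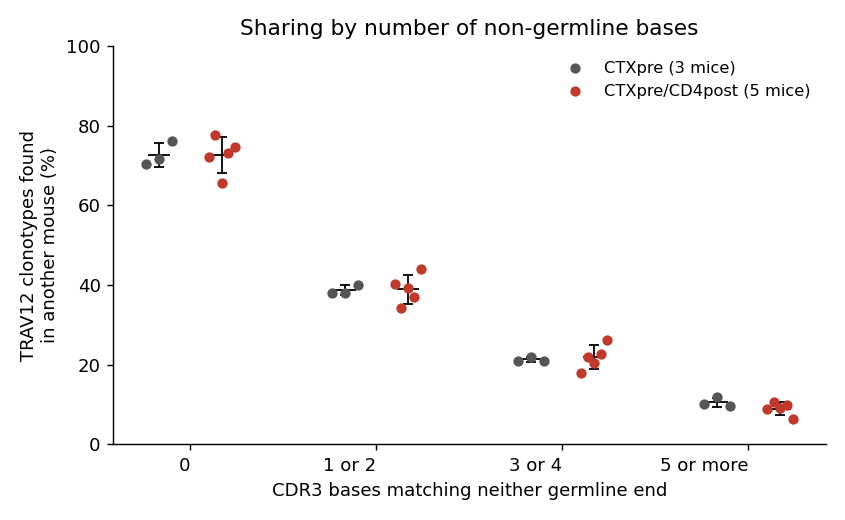
Share of TRAV12 clonotypes found in at least 1 other mouse, by the number of CDR3 bases that match neither germline end. Points are mice and bars are mean ± SD for the CTXpre (n = 3) and CTXpre/CD4post (n = 5) groups. The share is 65.6% to 77.6% at 0 bases and 6.29% to 11.8% at 5 or more.

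Forms that encode the same amino acid loop were also added together. The most frequent loop shared by the mice was that of number 3 and TRAJ23 (chr14:54196081-54196140), printed above in 3 of its 8 nucleotide forms. It was among the 10 most abundant family loops of 7 mice, with 17, 29 and 38 reads in the CTXpre mice and 20, 25, 16, 5 and 9 in the CTXpre/CD4post mice. The groups overlapped. The loop of TRAV12N-3 and TRAJ33, whose printed form is germline throughout, had 10, 8 and 15 reads against 3, 6, 3, 3 and 4 over its 5 forms. Here every CTXpre mouse was above every CTXpre/CD4post mouse, with 2 reads between the closest. As the family was chosen by the reads of TRAV12N-1 and TRAV12N-3, this direction was favoured by the choice and is no separate result. The share of all α-chain loops that lay apart in this way was not counted.

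The loop of TRAJ12 printed above had 6, 5 and 13 reads against 3, 1, 8, 5 and 1, and that of the next join had 6, 13 and 12 against 1, 7, 5, 6 and 1 over its 5 forms. Either overlapped between groups.

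TRAV12N-3 and TRAJ9: tgtgctctgatgggctacaaacttaccttc

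The loops of the printed TRAJ7 and TRAJ4 joins had 3, 13 and 14 against 7, 4, 4, 6 and 4 reads, and 9, 15 and 4 against 4, 2, 6, 2 and 2. A loop of number 3 and TRAJ32 had 4, 5 and 3 reads against 1, 9, 3, 3 and 1, and 1 of number 3 and TRAJ31, found in 7 mice, had 2, 5 and 11 against 1, 1, 3, 0 and 2. All 4 overlapped between groups. No test was run on these loops, and a count of 0 allows up to 3 reads.

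The loop of TRAV12-2 and TRAJ34 (chr14:54184699-54184756) had 5, 2 and 9 reads against 5, 4, 4, 13 and 4 over its 4 forms. Its highest count was in CTXpre/CD4post mouse 4, where the form printed above, with no unmatched base, had 1 read. Another form, with 2 unmatched bases, had 11 reads there. A pair of number 3 loops with TRAJ22 were each found in 2 CTXpre/CD4post mice and in no CTXpre mouse. The former had 16 reads in each of CTXpre/CD4post mice 2 and 4, in the same nucleotide form, which is the next printed. The latter had 7 reads in each of CTXpre/CD4post mice 4 and 5, in 2 forms. Both loops were listed only because 2 mice held them among their 10 most abundant, and those mice were all of the CTXpre/CD4post group. Their restriction to the larger group is therefore a description. How many other loops of 2 mice fell in that group alone was not counted.

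TRAV12N-3 and TRAJ22: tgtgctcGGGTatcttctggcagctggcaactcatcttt

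Joins found in 5 or more mice held 8.73%, 9.68% and 10.5% of family reads in the CTXpre mice and 7.22%, 8.85%, 7.31%, 5.79% and 5.70% in the CTXpre/CD4post mice. CTXpre/CD4post mouse 2 lay above CTXpre mouse 1, and the 4 other CTXpre/CD4post mice lay below all CTXpre mice. Counted in clonotypes, these joins made up 4.47% to 5.17% against 4.55% to 4.94% of the family. Among reads outside the family, joins found in 5 or more mice held 8.05% to 8.23% against 7.81% to 10.1%. As the family was chosen by the reads of TRAV12N-1 and TRAV12N-3, these read shares are a description with no test.

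Few clonotypes of the family were abundant. Those of 10 or more reads held 1.55%, 0.725% and 4.03% of family reads in the CTXpre mice and 4.65%, 2.16%, 0.913%, 6.96% and 10.3% in the CTXpre/CD4post mice, which overlapped (2.10% ± 1.72 against 5.00% ± 3.78, two-sided exact Mann–Whitney test, p = 0.25, adjusted 0.625). The difference of 2.90 points was 1.57 without CTXpre/CD4post mouse 5, 1.25 with clonotypes joined by amino acid sequence, 5.61 without clonotypes of 1 read and 6.44 for clonotypes of 5 or more reads. The share was lower in the family than among the other α-chain clonotypes of the same mouse, 3.92% against 9.15%, in 7 of 8 mice (-5.23 ± 5.86 points, exact sign-flip p = 0.0234, adjusted 0.0234). That difference averaged -0.699 points in the CTXpre group and -7.95 in the CTXpre/CD4post group (exact Mann–Whitney test of the difference between groups, p = 0.0714). It was the smallest p of 5 such tests, which were not adjusted. The largest difference was in CTXpre/CD4post mouse 5, where the family had 10.3% and the other clonotypes 27.7%.

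The abundant clonotypes were also compared by how many mice held them, with no test. Each was counted in every mouse where it had 10 or more reads. The printed TRAV12N-3 and TRAJ9 join so counts in CTXpre mice 2 and 3, and the printed TRAJ22 join in CTXpre/CD4post mice 2 and 4. In the CTXpre mice there were 9, and 7 of these counts were of joins found in 5 or more mice, all of TRAV12N-3. In the CTXpre/CD4post mice there were 19, of which 1, also of TRAV12N-3, was found in 5 or more mice and 13 in no other mouse. Among all α-chain clonotypes of 10 or more reads, 20 of 39 (51.3%) in the CTXpre mice and 43 of 262 (16.4%) in the CTXpre/CD4post mice were found in 5 or more mice, and 16 (41.0%) and 135 (51.5%) in no other mouse. The family made up 23.1% of these clonotypes in the CTXpre mice and 7.25% in the CTXpre/CD4post mice. As the family was chosen by the reads of TRAV12N-1 and TRAV12N-3, these counts and shares draw on the choice and are a description only. The counts of the CTXpre group rest on mouse 3, without which 3 were left and 1 of these was found in 5 or more mice, the CTXpre/CD4post count of 1 was 0 without mouse 1, and its count of 13 was 7 of 13 clonotypes without mouse 5. The highest count was 13 reads in the CTXpre group and 31 in the CTXpre/CD4post group. The 2 clonotypes of 31 reads, each 0.31% of its library (Wilson 95% interval 0.218% to 0.440%), were joins of TRAV12N-2 found in no other mouse.

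TRAV12N-2 and TRAJ9, CTXpre/CD4post mouse 4: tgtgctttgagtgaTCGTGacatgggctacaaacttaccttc
TRAV12N-2 and TRAJ23, CTXpre/CD4post mouse 5: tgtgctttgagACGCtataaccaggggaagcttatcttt

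The most abundant family clonotypes of the other mice were smaller. They had 11 reads in CTXpre mouse 1 (TRAV12N-2 and TRAJ17, 1 of 2 with that count) and 11 in CTXpre mouse 2 (the printed TRAJ9 join, found in 6 mice). CTXpre mouse 3 had 3 with 13 reads, the printed TRAJ12 join among them. In CTXpre/CD4post mice 1, 2 and 3 they had 15 reads (TRAV12-1 and TRAJ56), 16 (the printed TRAJ22 join) and 12 (TRAV12N-2 and TRAJ22). Among all α-chain clonotypes of their mice they ranked between 7 and 21.

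Of 95 V segments outside the family, those whose share of reads followed the family's most closely over the 8 mice were TRAV4N-3 (Pearson's r = 0.877), TRAV9-1 (0.835) and TRAV8D-2 (0.834). These r are a description over 8 libraries of fixed depth, in which all shares sum to 100%. TRAV4N-3 and TRAV9-1 are also among the V segments whose reads did not overlap between groups.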

How the data were processed

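En-T cells from 8 mice were profiled in 8 α-chain libraries (3 CTXpre, 5 CTXpre/CD4post), grouped by the sample labels. The authors amplified receptor RNA (100 ng) by nested PCR, removed adapters with Scythe and Sickle, aligned reads in MiXCR, used VDJtools to extract the chains and sampled every library down to 10000 reads. Deposited values are counts of reads per clonotype, the fraction of the library, which the authors' files give as count over total and which was not used, and positions of the V end and J start in the CDR3. The version of MiXCR is not given in the sources used here, and a count of 0 allows a share of up to 0.03% (3 reads).

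The members and lists were chosen with earlier results of these data known. Tests of V use between groups had been planned, and only their counts over all V segments are given, since the family was chosen by its use. All CDR3 were in frame. Germline ends were matched exactly to RefSeq segments of GRCm38, which gave a match for 99.8% of family clonotypes. Between groups, a two-sided exact Mann–Whitney test over all 56 splits (smallest p = 0.0357) was run on 5 measures. It was also run, without adjustment, on the family's difference from the others in the 5 within-mouse comparisons. The family was set against the other clonotypes of each mouse by an exact sign-flip permutation test over 256 sign patterns. Benjamini-Hochberg adjustment was applied to the 5 measures and to the sign-flip tests. V segments and V-J pairs with counts of 10 or more in 3 or more mice were fitted in edgeR 4.0.16 (R 4.3.3, TMM, quasi-likelihood test), with DESeq2 1.42.0 as an alternative. The rest ran in scipy 1.17.1, pandas 2.3.3 and numpy 2.4.6 (Python 3.11.15), and functions were tested on simulated data. Named were every TRAV12 copy, the 5 most frequent TRAJ and up to 10 past the threshold, each mouse's most abundant family clonotype, joins found in all 8 mice, and loops that 2 or more mice held among their 10 most abundant. Beyond this rule, a few loops, TRAJ and V segments were named after their values had been seen. The labels do not say whether mice were processed in batches.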

Additional observations from a re-analysis of the deposited data

Results flagged for a closer look

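Of 38 results tested over the 5 CTXpre/CD4post mice, 3 had a mouse whose gap to the next exceeded Dixon's limit of 0.71 of the group's range, and chance gives about 1 in 20. The share of family clonotypes found in another mouse was 32.2% in CTXpre/CD4post mouse 5. The TRAV12-2 and TRAJ34 loop had 13 reads over its 4 forms in CTXpre/CD4post mouse 4, of which the printed form had 1. The number 3 and TRAJ32 loop had 9 reads in CTXpre/CD4post mouse 2.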

How the results depend on the processing

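Of 247 alternatives over 20 results, 225 were counted as unchanged. For a tested difference this meant the same direction and the same side of the threshold. V use had no test, so no threshold applied there. A count near the main one was also taken as unchanged, such as 13 TRAJ that passed in place of 17. Group tests on mice paired by number, or with a mouse left out, were too small to pass. Their side of the threshold could therefore not change. With the exact match to germline ends, which was added after the data had been seen, the share without inserted bases differed between groups by 1.34 points (exact p = 0.143, n = 8), beside -0.110 by the files' positions (exact p = 1) and -3.76 by these without clonotypes of 1 read (exact p = 0.0714), and between family and others by -0.0508. The replicate block, which pairs mice 1 to 3 by number, turned that group difference to 0.156 points and that of the share found in another mouse to -0.573 (0.228 without it), and brought that of reads in clonotypes of 10 or more reads from 2.90 to 0.472. These numbers do not mark pairs: the mice are different animals, and their V use over 116 segments, less the group mean, correlated at -0.168, 0.187 and 0.0987. The block changed no call in edgeR. Weighted by reads, the difference in mean TRAJ number was -0.155 (0.246 unweighted). Without clonotypes of 1 read, the group difference in sharing was -4.17 points, and those of the family from the others were -1.92 (no inserted bases, exact sign-flip p = 0.297, n = 8) and 2.63 points (sharing, exact p = 0.0625). Against TRAV7, TRAV9 and TRAV14 they were 0.319 and -1.72 points, and 9 TRAJ passed in place of 17.

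With each mouse left out in turn, group differences ran from -0.940 to 0.655 points for number 1 of family reads, from -0.734 to 0.754 for no inserted bases, from -0.173 to 0.748 for TRAJ number and from -0.444 to 0.723 for sharing, and none of the last 3 passed. The V segments called in edgeR on clonotypes ranged from 0 to 1, with the 1 being TRAV12N-3 without CTXpre/CD4post mouse 3, from which nothing is read since the family was chosen by its use. The cause of these changes was not tested. With 1 CTXpre mouse left out the smallest Mann–Whitney p is 0.0952, and with 1 CTXpre/CD4post mouse 0.0571. Depth limits single clonotypes most, since 6036 of the 7846 were seen in 1 read.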
